A study of Mus musculus with 18 samples.

Results

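The 9 genes described here encode parts of the Nodal signalling pathway: the ligand Nodal, its co-receptor Tdgf1 and receptor Acvr1b, the secreted inhibitors Lefty1 and Lefty2, the effectors Smad3 and Foxh1, and the intracellular inhibitors Smad7 and Skil. They were chosen by name, with no measured value in the rule, from 21887 protein-coding mouse genes. For each gene, the peaks of H3K27ac and H3K4me3 were measured over the RefSeq gene body (mm10) extended by 20 kb on each side, here called the locus.

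The data are ChIP-seq peak lists from mouse embryonic stem cells of 3 genotypes, labelled Mettl3_Control, Mettl3_KO1 and Mettl3_KO2 and called Control, KO1 and KO2 below. Mettl3 is the catalytic subunit of the complex that writes N6-methyladenosine on RNA, and H3K27ac is a histone mark of active promoters and enhancers, H3K4me3 one of promoters. All cells were C57BL/6 and were grown in serum with LIF, the GSK3 inhibitor CHIR99021 and the MEK inhibitor PD0325901, and chromatin was precipitated beside spike-in chromatin. There were 2 libraries for each genotype and mark, 12 in all, while 6 input samples were not analysed here. How the lines were made, whether each was 1 clone, and whether the 2 libraries of a genotype came from separate cultures are not given in the sources used here, so p-values measure only the spread between libraries, which may be technical.

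Nodal is a secreted ligand of the TGF-beta family that signals through activin receptors and needs the co-receptor Tdgf1. The activated receptors phosphorylate Smad2 and Smad3, which bind Smad4 and act in the nucleus with Foxh1, and Nodal, Lefty1 and Lefty2 are themselves among the targets. Lefty1 and Lefty2 block the ligand and its co-receptor outside the cell, and Smad7 and Skil restrain the pathway inside it. Mouse embryonic stem cells are known to make Nodal and to respond to it.

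The number of H3K27ac peaks was 29973 and 32957 for the Control lists and rose to 40210 and 39048 for KO1, then to 65398 and 61383 for KO2. H3K4me3 lists ran the other way, from 81608 and 83644 peaks in Control to 69320 to 69995 in KO1 and 66483 to 72303 in KO2. A change at 1 gene is therefore read beside the median change over all genes tested. Reads per library are not given in the lists, so the depth behind a peak is unknown. The H3K4me3 coverage of the Mettl3 promoter window was 65.4% and 64.2% in Control, with 37.9% and 41.5% in KO1 and 48.0% and 44.1% in KO2, which does not read out the deletion. Of 6 embryonic stem cell markers, Tdgf1 among them, 5 had H3K27ac peaks in both libraries of every genotype. The exception was Esrrb, whose outermost annotated start had none, while its window with the most H3K4me3 was covered to between 23.2% and 84.6% in all 6 H3K27ac libraries. Markers of fibroblasts, primitive endoderm, trophectoderm, mesendoderm and neuroectoderm had no H3K27ac peak in Control. In KO2, mean H3K27ac coverage reached 6.82% over the 5 mesendoderm markers, 6.63% over the 5 neuroectoderm markers and 6.08% over the 5 trophectoderm markers. At 0 in both KO2 libraries were T and Foxa2 (mesendoderm), Pax6 and Neurog2 (neuroectoderm), and Cdx2, Elf5, Krt8 and Hand1 (trophectoderm). The trophectoderm value thus came from Tfap2c alone. The part of these markers in the results below was not tested.

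RefSeq promoter sequences (GRCm38.p6, the assembly of mm10) were matched for 4 of the 9 genes, and 3 are shown. The H3K27ac changes at the starts of all 4, Acvr1b included, are described below. Each runs from 250 bases before the annotated start to 50 after it, in the direction of the gene. Capitals in the Tdgf1 sequence mark matches to 2 motifs known from this pathway, the core bound by FOXH1 (TGTNNATT) and the SMAD box CAGAC.
Nodal (chr10:61417722-61418021, plus strand): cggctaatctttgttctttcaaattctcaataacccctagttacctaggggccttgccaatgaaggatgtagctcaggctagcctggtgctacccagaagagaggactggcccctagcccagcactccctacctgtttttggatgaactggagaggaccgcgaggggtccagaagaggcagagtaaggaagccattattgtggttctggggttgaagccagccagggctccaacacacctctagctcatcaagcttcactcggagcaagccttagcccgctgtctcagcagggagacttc
Tdgf1 (chr9:110946109-110946408, minus strand): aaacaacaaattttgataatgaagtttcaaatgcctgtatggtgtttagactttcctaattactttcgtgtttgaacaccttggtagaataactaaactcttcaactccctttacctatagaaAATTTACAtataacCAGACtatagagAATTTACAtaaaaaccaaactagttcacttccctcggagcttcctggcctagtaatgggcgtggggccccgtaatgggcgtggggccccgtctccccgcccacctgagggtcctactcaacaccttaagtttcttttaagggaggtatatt
Smad3 (chr9:63757945-63758244, minus strand): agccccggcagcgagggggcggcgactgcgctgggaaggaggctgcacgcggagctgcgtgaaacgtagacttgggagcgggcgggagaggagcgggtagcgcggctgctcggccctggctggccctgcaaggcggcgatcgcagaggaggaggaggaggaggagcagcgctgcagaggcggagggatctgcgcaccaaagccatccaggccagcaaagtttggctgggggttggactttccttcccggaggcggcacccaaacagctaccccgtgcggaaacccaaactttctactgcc
The Tdgf1 sequence held 2 matches to the FOXH1 core, beginning at positions -127 and -101 from the start on the opposite strand, and a CAGAC box between them. Searched on both strands, the FOXH1 core occurred in 12.2% of 32851 mouse promoter sequences of this length and the CAGAC box in 49.6%, so the latter is common. Neither these nor the SMAD palindrome (GTCTAGAC, in 0.213% of promoters) occurred in the Nodal, Smad3 or Acvr1b promoter sequences. Bases beyond these sequences were not searched. A match is a description of the letters and not evidence of binding.

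Nodal, on chromosome 10 (61417972 to 61425338), gained H3K27ac in KO2 around an H3K4me3 domain that was already broad in Control. Its locus held 4149 and 4509 bp of H3K27ac peaks in the Control libraries, against 5771 and 5290 bp in KO1 and 11212 and 11271 bp in KO2. Both KO2 libraries lay above the other 4, and those of KO1 above those of Control. On the log2(bp + 500) scale the rise in KO2 was 1.28 ± 0.12 (SE, limma adjusted p = 2.21e-06), close to the median of all genes, 1.13. Because the marks were measured on bulk chromatin, a change in every cell and a change in the share of cells that carry a mark cannot be told apart.

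In the promoter window, which spans 2 kb on each side of the start, H3K27ac covered 57.3% and 59.9% of the Nodal window in Control, against 48.1% and 65.9% in KO1 and 95.7% and 94.0% in KO2. Control and KO1 overlapped, and both KO2 libraries were nearly filled. The rise in KO2 was 36.3 percentage points ± 5.79 (SE, limma adjusted p = 0.000764), against a median of 17.9 over all genes tested, and 92.6% of them had a smaller change. The region that holds the start (chr10:61414327-61419001) was made of several peaks in Control, 3572 and 3492 bp in sum, and was 4665 and 4557 bp in KO2. A region at -9.03 kb from the start (chr10:61407933-61409949) held 0 and 314 bp in Control, with 643 and 544 bp in KO1 and 1752 and 1876 bp in KO2. It was singled out after its values were seen. Of the regions at Nodal with peaks in both KO2 libraries and neither Control library, the one with the most covered bp lay 3.25 kb downstream of the start (281 and 734 bp).

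H3K4me3 covered 88.0% and 89.0% of the Nodal window in Control, against 91.5% and 90.6% in KO1 and 93.0% and 97.8% in KO2, with no call. Over the locus, H3K4me3 was 15621 and 15135 bp in Control, with 11389 and 13165 bp in KO1 and 12372 and 10360 bp in KO2. The 4 knockout libraries were all below Control, and the KO2 change was -0.43 ± 0.13 on the log2 scale (limma adjusted p = 0.0205). Part of that length lay in the body of the neighbouring gene Eif4ebp2, where 1 region (chr10:61439806-61446307, which reaches past the end of the locus and was chosen after its values were seen) went from 6287 and 5654 bp in Control to 2956 and 2823 bp in KO1 and 2140 and 1643 bp in KO2. With the gene body extended by only 5 kb the change was -0.09 (adjusted p = 0.575). With each chromosome's mean shifted to the mean of its library, it was -0.31 (adjusted p = 0.0702). Without Control replicate 1 or 2 it was -0.40 and -0.45, with no call.

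**Figure D1:**
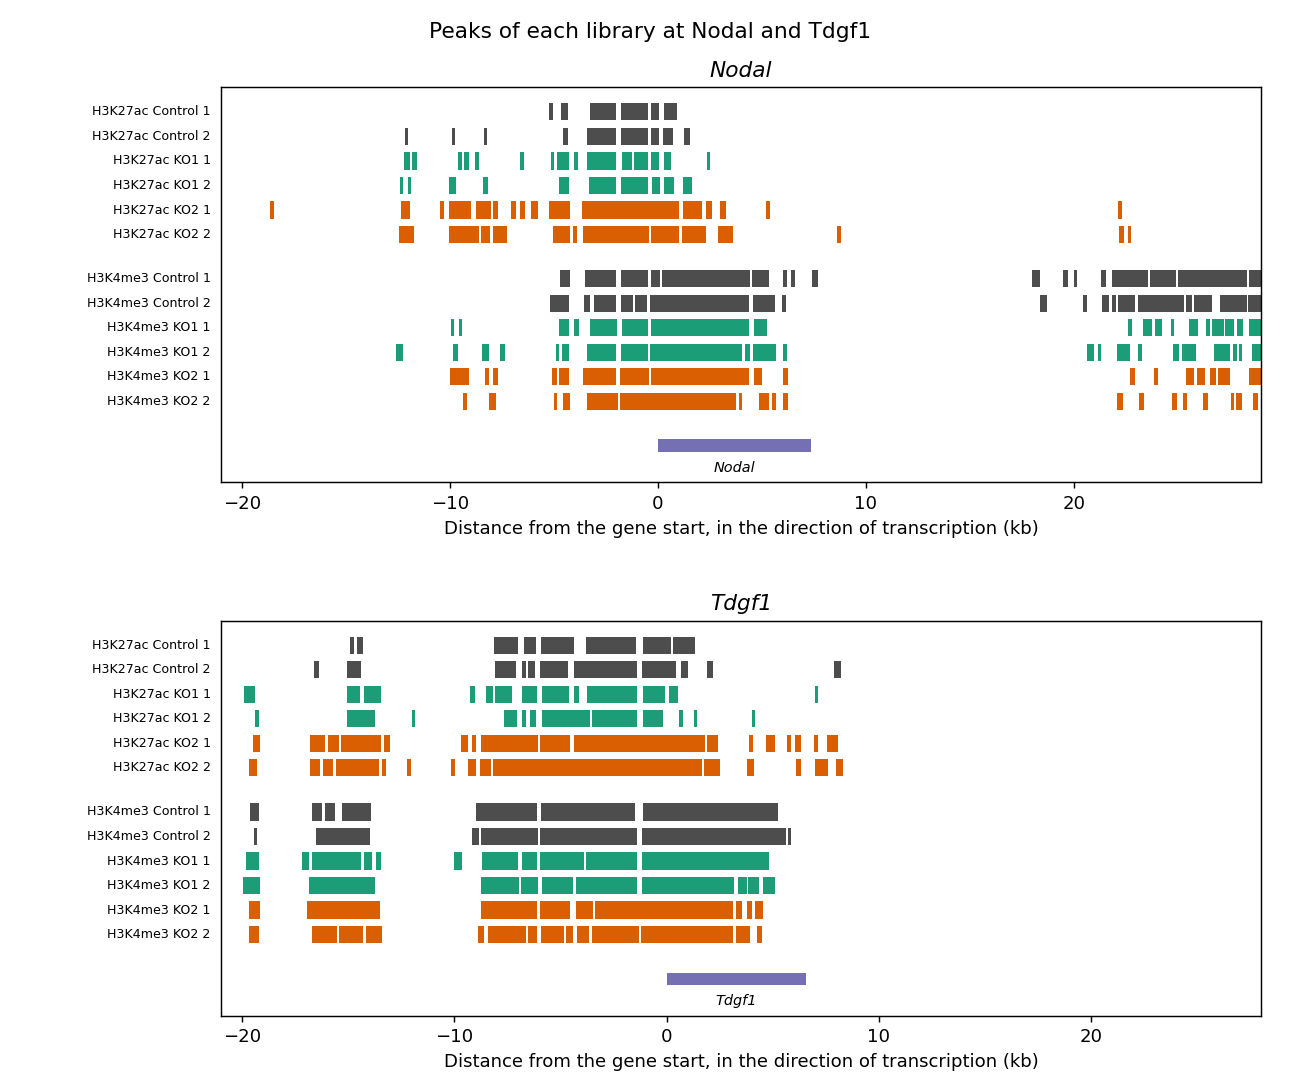
Deposited peaks of each library at Nodal and Tdgf1, by distance from the gene start in the direction of transcription (kb); each row is 1 library and each bar 1 peak, with the gene body below. H3K27ac peaks around both starts were separate blocks in Control and KO1 and joined into longer blocks in the 2 KO2 libraries, while the H3K4me3 blocks at the starts were long in all 6 libraries.

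Tdgf1 encodes Cripto, the co-receptor that lets Nodal engage its receptors, and lies on chromosome 9 (110939608 to 110946158, minus strand). It carried the most H3K27ac of the 9 promoters in Control and had the lowest KO1 values relative to Control. H3K27ac covered 73.0% and 66.7% of its window in Control, against 51.9% and 46.5% in KO1 and 97.8% and 97.1% in KO2, and the 3 genotypes did not overlap. The difference in KO1 was -20.7 points ± 4.18 (SE), which did not pass the test (limma adjusted p = 0.0924), although 6 of 9329 genes had a more negative value. In KO2 coverage rose by 27.6 points ± 4.18 (limma adjusted p = 0.000617). In a window of 1 kb on each side this rise was 7.90 points and was not called (adjusted p = 0.269).

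Over the Tdgf1 locus, H3K27ac was 8509 and 9265 bp in Control, with 9490 and 8416 bp in KO1 and 16833 and 16979 bp in KO2. Only KO2 stood apart, with a rise of 0.89 ± 0.10 (log2, limma adjusted p = 1.05e-05), below the median of all genes. The block that spans the start (chr9:110943660-110954959) also covers the promoter window of the neighbour Lrrc2 and held 8015 and 8064 bp in Control, against 7173 and 6638 bp in KO1 and 10787 and 11081 bp in KO2. A region at -15.2 kb from the start (chr9:110959637-110962985, chosen after its values were seen) grew in both lines, from 494 and 890 bp in Control to 1430 and 1328 bp in KO1 and 3105 and 3009 bp in KO2. H3K4me3 over the locus was 16436 and 17167 bp in Control, against 17114 and 16742 bp in KO1 and 16318 and 15554 bp in KO2. Control and KO1 overlapped and KO2 lay just below both, with no call. The window was covered to between 91.6% and 100% by H3K4me3.

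Acvr1b encodes the type I receptor that Nodal and activin use, and lies on chromosome 15 (101174072 to 101213684). Its promoter window had no H3K27ac peak in either Control library, was covered to 9.8% and 4.4% in KO1, and to 20.2% and 25.5% in KO2. The order Control, KO1, KO2 held without overlap, and the rise in KO2 was 22.9 points ± 2.99 (SE, limma adjusted p = 0.000355). The window passed the filter of a mean of 5% over the 6 libraries only through KO2 and so had to differ; with no filter the adjusted p was 0.00171. Its locus went from 1048 and 638 bp in Control and 1525 and 1009 bp in KO1 to 5899 and 5117 bp in KO2, a rise of 2.17 ± 0.20 on the log2 scale (limma adjusted p = 2.70e-06). The mean of 843 bp in Control alone was under the filter of 1000 bp, that over Control and KO1, 1055 bp, above it. The region over the start itself (chr15:101174078-101174881) was empty in Control and held 392 and 178 bp in KO1 and 531 and 757 bp in KO2.

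H3K4me3 moved the other way at Acvr1b. Its locus held 11419 and 12904 bp in Control, with 6349 and 5361 bp in KO1 and 9867 and 6867 bp in KO2, so all 4 knockout libraries were below Control. The log2 change was -0.996 ± 0.16 in KO1 (limma adjusted p = 0.0017) and -0.53 ± 0.16 in KO2 (limma adjusted p = 0.0228). In KO2 the call was lost without KO2 replicate 2 (-0.29, adjusted p = 0.107), without Control replicate 1 (-0.62, adjusted p = 0.0534), without Control replicate 2 (-0.45, adjusted p = 0.142) and without the promoter windows of other genes (-0.51, adjusted p = 0.06), as well as with stricter peaks (-0.41, adjusted p = 0.0943) and an equal number of peaks per list (-0.41, adjusted p = 0.0507). The promoter window itself was covered to between 38.9% and 51.0% by H3K4me3 in all 6 libraries, with no call.

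**Figure D2:**
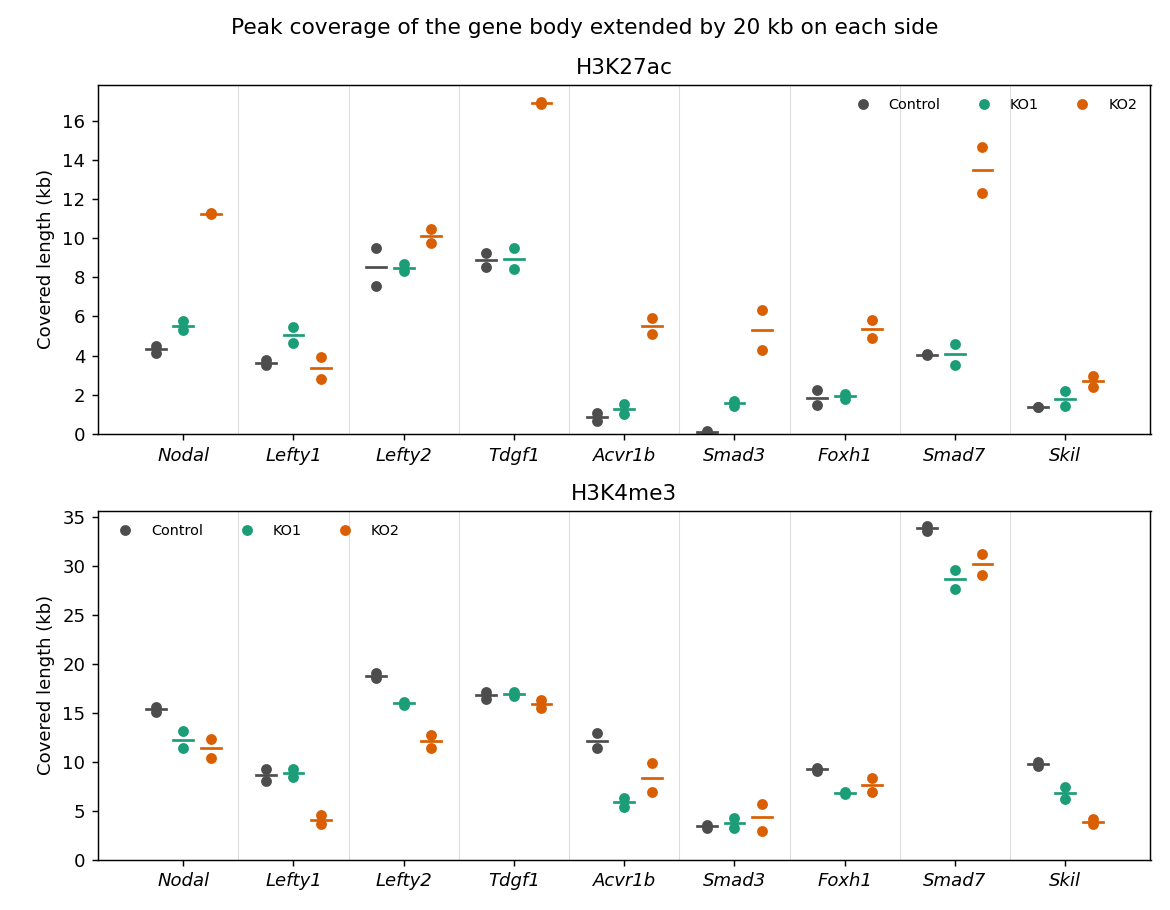
Length covered by peaks (kb) in the gene body extended by 20 kb on each side, for H3K27ac (upper) and H3K4me3 (lower) at the 9 genes; each point is 1 library and the line is the mean of the 2 libraries of a genotype. For H3K27ac the KO2 points lie above Control at every gene except Lefty1, where 2824 and 3936 bp in KO2 stand beside 3523 and 3756 bp in Control.

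Lefty1 and Lefty2 lie on chromosome 1, 35.9 kb apart (Lefty2 at 180893108 to 180899107, Lefty1 at 180935022 to 180938401), so that their loci overlap by 4.1 kb, in which no region of either mark was counted for both. They were the 2 members whose H3K27ac was not called higher in KO2, and both fell in H3K4me3 there. Their promoter windows were placed at the most H3K4me3 in the gene, since no start was matched.

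H3K27ac over the Lefty1 locus was 3523 and 3756 bp in Control, against 5470 and 4635 bp in KO1 and 2824 and 3936 bp in KO2. KO1 lay above the other genotypes, and KO2 overlapped Control. The KO2 difference was -0.11 ± 0.16 (log2, limma adjusted p = 0.526), and 84 of 8909 genes (0.943%) had a more negative one. Without KO2 replicate 1 it was 0.10 (adjusted p = 0.608), and with an extension of 5 kb it was 0.30 (adjusted p = 0.129). The Lefty1 window was covered by H3K27ac to 21.0% and 21.8% in Control, with 35.4% and 22.4% in KO1 and 24.1% and 32.0% in KO2, a KO2 difference of 6.66 points (limma adjusted p = 0.223). A region 12.1 kb from the window centre, on the side of Lefty2 (chr1:180921861-180924711, chosen after its values were seen), held 1396 and 1683 bp in Control, against 2771 and 2229 bp in KO1 and 734 and 1235 bp in KO2.

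Lefty2 had more H3K27ac, 9508 and 7574 bp in Control, with 8340 and 8657 bp in KO1 and 9760 and 10481 bp in KO2. Both KO2 values were the highest, but the difference of 0.24 ± 0.12 did not pass the test (limma adjusted p = 0.0781). Without Control replicate 1 it was 0.39 and passed (adjusted p = 0.0173). Of the genes tested, 246 (2.76%) had a smaller change. Window coverage was 35% and 46.9% in Control, against 31.4% and 37.4% in KO1 and 43.2% and 50.1% in KO2, with Control and KO2 overlapping (difference 5.69 points, limma adjusted p = 0.318). The region 3.86 kb before the window centre in genome direction held 1787 to 2043 bp in all 6 libraries. It was neither gained nor lost and was chosen after its values were seen.

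H3K4me3 at the Lefty1 window was 95.7% and 96.0% in Control, with 100% and 87.7% in KO1 and 60.3% and 39.1% in KO2. Control and KO1 overlapped, and KO2 was far below both. The change in KO2 was -46.2 points ± 6.89 (SE, limma adjusted p = 0.0136), and 15 of 13344 genes (0.112%) had a more negative change, against a median of -2.30. In Control and KO1 the window held 1 to 3 peaks, the widest 2781 to 4610 bp, whereas KO2 held 4 and 6 peaks, the widest 947 and 387 bp. The authors' deposited fold of the strongest peak there stood between percentiles 84.5 and 88.2 of its own list in Control and KO1, and at percentiles 65.3 and 46.9 in KO2. Over the locus, H3K4me3 was 8046 and 9263 bp in Control, against 9314 and 8496 bp in KO1 and 4515 and 3684 bp in KO2, a change of -0.996 ± 0.13 in KO2 (log2, limma adjusted p = 0.000245).

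Lefty2 fell as well. H3K4me3 covered 100% of its window in both Control libraries, against 100% and 96.3% in KO1 and then 79.4% and 69.0% in KO2, a change of -25.8 points ± 3.71 in KO2 (limma adjusted p = 0.0122). The locus held 19092 and 18538 bp in Control, with 16104 and 15849 bp in KO1 and 12787 and 11389 bp in KO2, with no overlap between genotypes and a change of -0.62 ± 0.11 in KO2 (limma adjusted p = 0.00153). The region over the window (chr1:180891569-180897405) shortened from 5687 and 5605 bp in Control to 5145 and 4936 bp in KO1 and 3242 and 2761 bp in KO2. Of the 2 regions lost in KO2, the one with the most covered bp in Control lay 11.2 kb before the window centre (chr1:180882231-180882938), at 708 and 526 bp in Control, against 329 and 185 bp in KO1 and 0 in KO2.

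The promoter falls of both genes stayed called after quantile normalization, which gives the 6 libraries of a mark the same distribution (-41.5 points, adjusted p = 0.00874, and -21.8 points, adjusted p = 0.0074). They lost the call with 1 Control library left out, Lefty1 at -46.3 and -46.0 points (adjusted p = 0.091 and 0.0813) and Lefty2 at -25.8 points both times (adjusted p = 0.0894 and 0.0811), Lefty1 also without KO2 replicate 2 (-35.6 points, adjusted p = 0.0596). In the narrower window of 1 kb on each side, Lefty1 was at -54.0 points and Lefty2 at -5.80 points and neither was called (adjusted p = 0.0813 and 0.175).

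**Figure D3:**
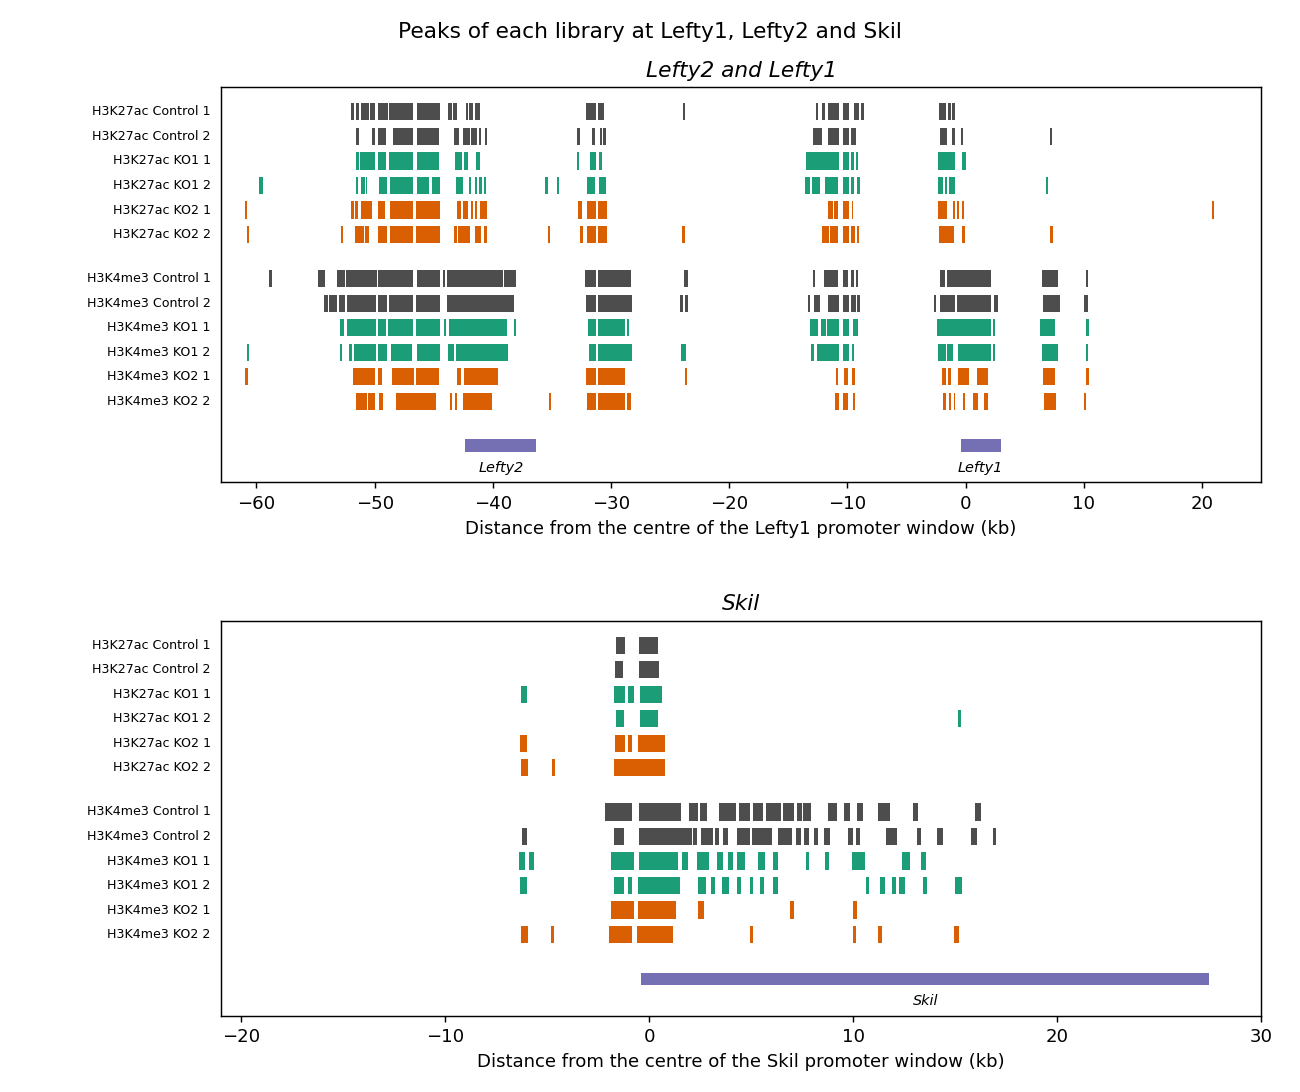
Deposited peaks of each library at Lefty2 and Lefty1 (upper) and Skil (lower), by distance from the centre of the Lefty1 or Skil promoter window (kb, in genome direction); rows are libraries, bars are peaks and gene bodies are below. The H3K4me3 block over Lefty1 broke into 4 and 6 short peaks in KO2, and the H3K4me3 peaks inside the Skil gene thinned out from Control to KO1 to KO2.

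Smad3 encodes a receptor-activated transcription factor of the pathway and lies on chromosome 9 (63646766 to 63757994, minus strand). Its locus was almost without H3K27ac peaks in Control and carried them in both lines. Its locus held 0 and 150 bp in Control, with 1450 and 1701 bp in KO1 and 4285 and 6318 bp in KO2, without overlap. The rise was 1.86 ± 0.22 (log2) in KO1 (limma adjusted p = 0.00039) and 3.33 ± 0.22 in KO2 (limma adjusted p = 4.5e-07). A gene entered the fit with a mean of at least 1000 bp over the 6 libraries, and Smad3, at a mean of 75 bp in Control and 825 bp over Control and KO1, passed only through KO2. It therefore had to differ, and its place among the tested genes is not read. With no filter the adjusted p was 0.0113 in KO1 and 0.000112 in KO2. At the start, H3K27ac covered 0% of the window in both Control libraries, against 7.5% and 9.8% in KO1 and then 38.4% and 43.3% in KO2, a rise of 40.8 points ± 3.09 in KO2 (limma adjusted p = 9.96e-05). The window, too, passed its filter of 5% only through KO2, and the adjusted p with no filter was 0.00103.

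The region on the Smad3 start (chr9:63757477-63758831) had no peak in Control, against 300 and 394 bp in KO1 and 1202 and 1355 bp in KO2, and it covers the promoter sequence printed above. The other 6 regions gained in KO2 lay inside the gene, and 5 of all 7 were also gained in KO1. H3K4me3 was present at that start in every library, at 53.2% and 56.7% in Control, with 56.9% and 68.5% in KO1 and 61.0% and 54.0% in KO2, with no call. The H3K4me3 length over the locus ran from 2979 to 5728 bp with overlapping genotypes.

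Foxh1 encodes the forkhead factor that brings the Smad complex to its targets, and lies on chromosome 15 (76667829 to 76671614) among Cyhr1, Kifc2 and Ppp1r16a, whose promoter windows reach into its locus. Peaks there cannot be assigned to 1 of these genes. H3K27ac over the locus was 1453 and 2246 bp in Control, against 2057 and 1779 bp in KO1 and 5796 and 4922 bp in KO2, with only KO2 apart and a rise of 1.34 ± 0.18 (log2, limma adjusted p = 3.65e-05). The window was covered to 30.6% and 27.9% in Control, with 27.3% and 27% in KO1 and 48.2% and 34.1% in KO2. That rise of 11.9 points ± 4.99 was at the edge of the threshold (limma adjusted p = 0.0495) and lost the call with any library but KO2 replicate 2 left out, the value without KO2 replicate 1 being 4.84 points (adjusted p = 0.248). Under 6 other settings it was also not called, at 5.47 to 11.9 points (adjusted p = 0.0552 to 0.253), besides quantile normalization.

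H3K4me3 in the Foxh1 window was lower in both lines, at 93.5% and 96.3% in Control, against 68.9% and 61.6% in KO1 and 66.3% and 52.9% in KO2. The lines overlapped each other and not Control. The change was -29.7 points ± 5.02 in KO1 (limma adjusted p = 0.0398) and -35.3 points ± 5.02 in KO2 (limma adjusted p = 0.012). Without 1 Control library the KO2 value was -36.7 or -33.9 points (adjusted p = 0.0819 and 0.0811) and without KO2 replicate 2 -28.7 points (adjusted p = 0.0621). In a window of 1 kb on each side the KO2 value was -59.6 points (adjusted p = 0.0815). The KO1 call was lost without any library but KO2 replicate 2, the values running from -33.4 to -26.0 points. Over the locus the KO1 change was -0.42 ± 0.12 (log2, adjusted p = 0.0275), from 9108 and 9420 bp in Control to 6921 and 6714 bp in KO1, and it was not called without any 1 of the 4 Control and KO1 libraries (-0.44 to -0.39, adjusted p = 0.106 to 0.158) or without the windows of the neighbours (-0.38, adjusted p = 0.0963). KO2 held 8360 and 6937 bp.

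Smad7 encodes the inhibitory Smad that blocks the receptors, and lies on chromosome 18 (75367365 to 75395935). Its H3K27ac differed in KO2 only. The locus held 4007 and 4106 bp in Control, with 4612 and 3511 bp in KO1 and 14678 and 12328 bp in KO2, a rise of 1.61 ± 0.15 (log2, limma adjusted p = 2.11e-06). Window coverage was 27.7% and 18.7% in Control, against 22.1% and 20.2% in KO1 and 53.1% and 62.3% in KO2, a rise of 34.5 points ± 4.80 (limma adjusted p = 0.000443). In both measures Control and KO1 overlapped.

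Smad7 held 34 H3K27ac regions, the most of the 9 loci. Of these, 13 were gained in KO2, also the most, beside 24.2% of 77139 regions genome-wide. The one with the most covered bp lay inside the gene, 9.06 kb from the window centre (chr18:75378495-75381149), with 0 bp in all Control and KO1 libraries and 2085 and 1927 bp in KO2. H3K4me3 covered 100% of the window in all 6 libraries, which leaves nothing to test there, and 27697 to 34118 bp of the locus, more than at any other of the 9. Both KO1 values (29629 and 27697 bp) and both KO2 values (31282 and 29095 bp) lay below Control (33645 and 34118 bp), with no call.

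Skil encodes SnoN, which represses Smad complexes, and lies on chromosome 3 (31095058 to 31122923). Its H3K27ac rose least of the 7 loci called in KO2, from 1383 and 1350 bp in Control, with 2189 and 1414 bp in KO1, to 2397 and 2965 bp (0.76 ± 0.19, log2, limma adjusted p = 0.00259). Only 23.0% of genes had a smaller change. The window was covered to 34.6% and 33.7% in Control, with 48.4% and 31.6% in KO1 and 52.3% and 61.7% in KO2, a rise of 22.8 points ± 6.09 (limma adjusted p = 0.00779). Without KO2 replicate 2 that rise was 18.1 points and not called (adjusted p = 0.0943).

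The H3K4me3 of Skil shortened in both lines. Its locus held 9964 and 9588 bp in Control, against 7428 and 6199 bp in KO1 and 3650 and 4133 bp in KO2, and the 3 genotypes did not overlap. The change was -0.50 ± 0.13 in KO1 (log2, limma adjusted p = 0.0153) and -1.23 ± 0.13 in KO2 (limma adjusted p = 5.83e-05), and 1.96% of genes had a more negative change in KO2. The KO1 call was lost without either Control library (-0.47 and -0.52, adjusted p = 0.113 and 0.0725) or KO1 replicate 2 (-0.37, adjusted p = 0.162), and with an equal number of peaks per list (-0.36, adjusted p = 0.0629).

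Part of the length that differed lay inside the gene. The promoter window was covered to 82.5% and 73.8% in Control, with 82.7% and 67.6% in KO1 and 74.3% and 73.4% in KO2, with no call, whereas a region 5.68 kb from the window centre inside the gene (chr3:31099741-31102543, chosen after its values were seen) went from 2247 and 2319 bp in Control to 933 and 786 bp in KO1 and 196 and 150 bp in KO2. Of 20 H3K4me3 regions at Skil, 6 were lost in KO2, beside 8.4% of 105246 regions genome-wide. With peaks within 1 kb joined, none at the 9 genes was lost there. Of the 6, the one with the most covered bp lay just before the region at 5.68 kb (chr3:31098684-31099727, 837 and 426 bp in Control, 533 and 346 bp in KO1).

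**Figure D4:**
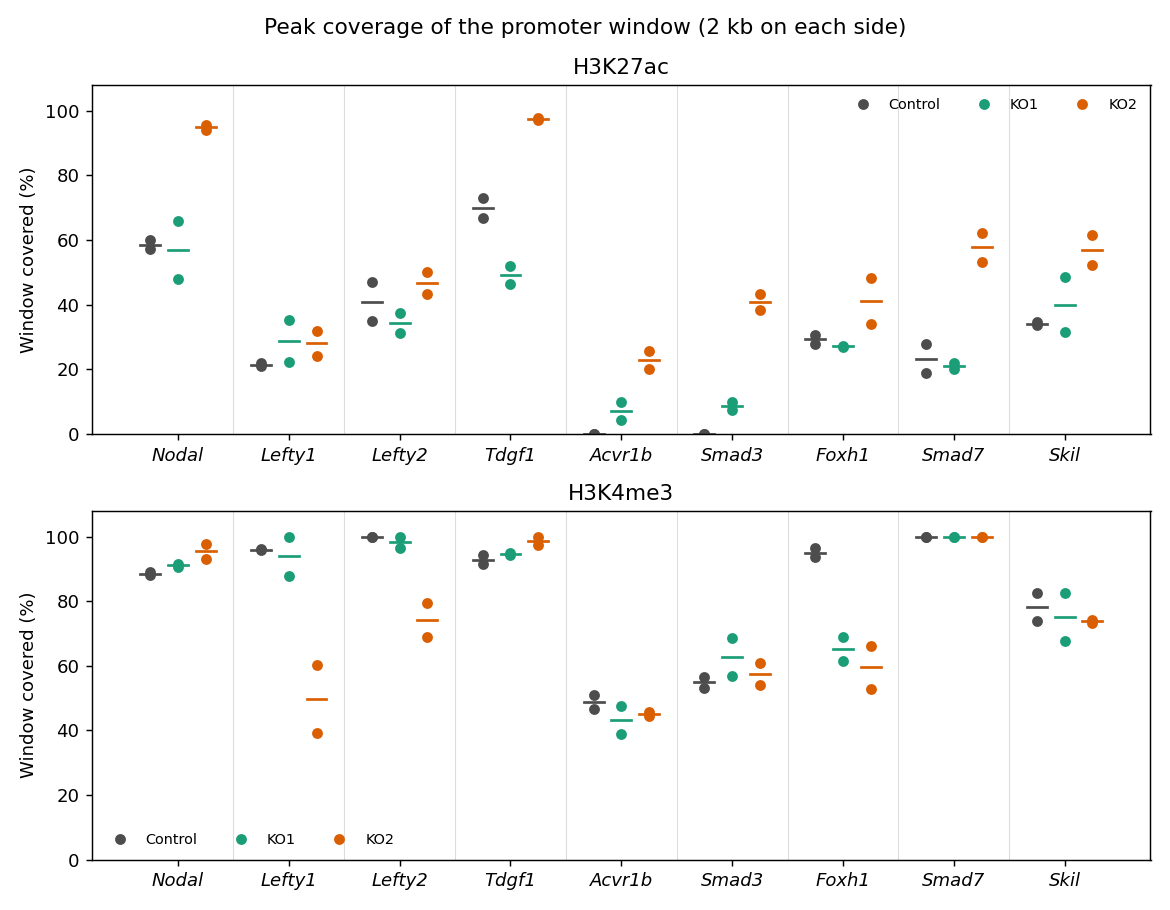
Percent of the promoter window (2 kb on each side of its centre) covered by peaks of H3K27ac (upper) and H3K4me3 (lower) at the 9 genes; each point is 1 library and the line is the mean of the 2 libraries of a genotype. The H3K27ac points of KO2 are at 94.0% or more at Nodal and Tdgf1, and the H3K4me3 points of KO2 are far below both Control points at Lefty1, Lefty2 and Foxh1 and just below them at Acvr1b.

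Counted over the 9 loci, H3K27ac rose at 7 in KO2 (Nodal, Tdgf1, Acvr1b, Smad3, Foxh1, Smad7 and Skil) and fell at none, beside 94.4% of 8909 genes tested called higher and 0.258% called lower. The 9 had a median change of 1.28 and all genes 1.13. These counts are a description, since the Smad3 locus and the Acvr1b and Smad3 windows passed the filters only through KO2. In KO1 only Smad3 rose, beside 24.0% of genes, with 0 of 9 lower beside 1.07%. Over the window the same 7 genes rose in KO2, beside 88.4% of 9329 genes, and none fell, beside 0.075%. No member was called there in KO1 (limma, 3 at an unadjusted p under 0.05), beside 0.289% of genes higher and 0.0107% lower. The 2 lines are compared with the same Control libraries, so these counts are not independent of each other.

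H3K4me3 over the locus fell at 5 of 9 genes in KO2 (Nodal, Lefty1, Lefty2, Acvr1b and Skil), beside 31.8% of 13696 genes, and at 3 in KO1 (Acvr1b, Foxh1 and Skil), beside 23.0%. None rose in either line, beside 5.83% and 2.12%. In the promoter window 8 members could be tested. Of these, 3 fell in KO2 (Lefty1, Lefty2 and Foxh1), beside 5.67% of 13344 genes, and Foxh1 in KO1, beside 1.56%. None rose, beside 1.38% and 0.187%. The windows of these 3 genes were placed at the most H3K4me3. They were covered to between 93.5% and 100% in Control, which left little room to rise. With every window so placed, 1311 of 14118 genes were called lower in KO2 and 237 in KO1. The H3K4me3 counts of the 9 genes depended on single libraries. Over the locus the KO2 count of 5 was 3 without either Control library, and 1 gene was called higher without KO2 replicate 2. The KO1 count of 3 was 1 without either Control library or KO1 replicate 2, 2 without KO1 replicate 1, and 6 without either KO2 library. In the window the KO2 count of 3 was 0 without either Control library and 1 without KO2 replicate 2, and the KO1 count of 1 was 0 without any library but KO2 replicate 2.

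Between the lines, H3K27ac over the locus was higher in KO2 than in KO1 at the same 7 genes, beside 87.1% of genes, and lower at Lefty1, beside 0.337%. Promoter coverage was higher at those 7 genes, beside 76.2%, and lower at none, beside 0.075%. H3K4me3 over the locus was lower at Lefty1 and Skil, beside 3.96%, and higher at none, beside 4.53%. In the window it was lower at Lefty1 and Lefty2, beside 0.225%, and higher at none, beside 0.525%. With every window placed at the most H3K4me3, as those of Lefty1 and Lefty2 were, 43 of 14118 genes were called lower. The H3K27ac locus count of 1 lower was 0 without KO1 replicate 1 or KO2 replicate 1. For H3K4me3 the locus count of 2 lower was 1 without KO1 replicate 1, with 2 called higher without KO2 replicate 2, and the window count of 2 was 0 without any library but KO2 replicate 1.

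Quantile normalization, which removes the general rise of H3K27ac in KO2 (median change over all genes of -0.05 in place of 1.13, with 1815 genes higher and 2006 lower in place of 8411 and 23), changed the H3K27ac picture. Smad3 (1.92, adjusted p = 4.38e-05), Acvr1b (0.97, adjusted p = 0.00213) and Smad7 (0.48, adjusted p = 0.00612) were called higher over the locus in KO2 and Lefty1 (-1.27, adjusted p = 7.47e-05) and Lefty2 (-0.87, adjusted p = 0.000175) lower. Nodal (0.14, adjusted p = 0.305), Foxh1 (0.14, adjusted p = 0.521), Tdgf1 (-0.16, adjusted p = 0.148) and Skil (-0.41, adjusted p = 0.0909) were not called. Of the promoter windows Smad3 alone was called (21.3 points, adjusted p = 0.00782). Nodal was at 12.8 points (adjusted p = 0.189) and Tdgf1 at 8.52 points (adjusted p = 0.11). The filters were the same here, so the Smad3 locus and window again entered only through KO2 and had to differ. For H3K4me3 the medians over all genes moved from -0.20 to 0.00 in KO2 and from -0.20 to 0.02 in KO1, the calls from 799 higher and 4358 lower to 2497 and 2230 in KO2, and from 290 higher and 3156 lower to 1316 and 1308 in KO1. The H3K4me3 falls over the locus at Lefty1 (-0.68), Lefty2 (-0.20) and Skil (-0.91) in KO2 and at Acvr1b (-0.67) in KO1 were called there too. Among all genes the split of calls also moved for H3K27ac over the locus in KO1 (2137 higher and 95 lower to 631 and 407), for H3K27ac in the promoter window in KO2 (8245 and 7 to 636 and 535) and KO1 (27 and 1 to 6 and 1), and for H3K4me3 in the promoter window in KO2 (184 and 756 to 413 and 400) and KO1 (25 and 208 to 54 and 96).

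**Figure D5:**
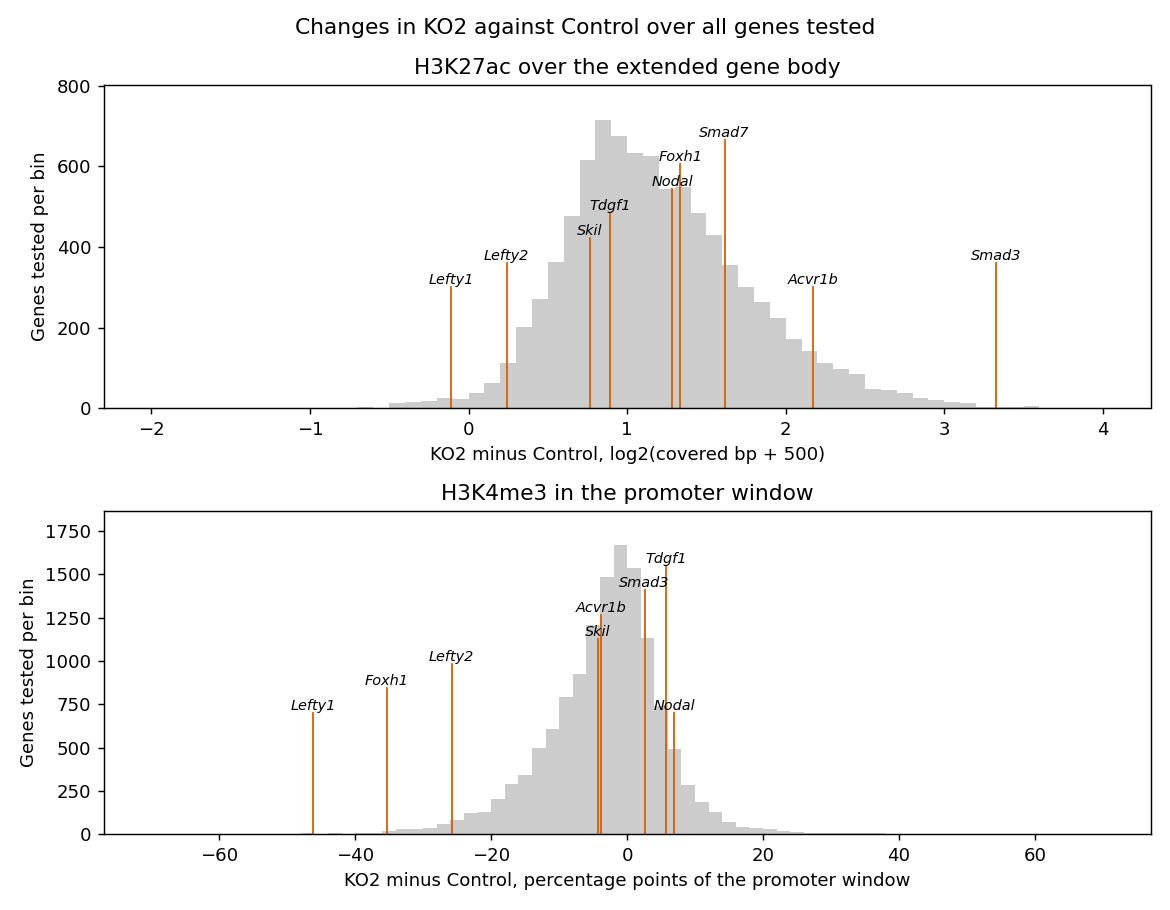
Change in KO2 against Control over all genes tested (grey, number of genes per bin) and at the 9 genes (lines whose heights only separate the names), for H3K27ac over the locus (upper, log2 of covered bp + 500) and H3K4me3 in the promoter window (lower, percentage points; Smad7 is at 100% in all libraries and is not shown). Lefty1 and Lefty2 lie near the lower end of the H3K27ac distribution, and Lefty1, Foxh1 and Lefty2 near the lower end for H3K4me3. The Smad3 locus passed the H3K27ac filter only through KO2, so its place there is not read.

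Merged into regions, with each region counted once, the 9 loci held 136 H3K27ac regions, of which 44 had a peak in Control, against 60 in KO1 and 128 in KO2, in at least 1 library. Counting as gained a region with peaks in both libraries of a line and in neither Control library, 40 were gained in KO2 and 8 in KO1, beside 24.2% and 4.64% of 77139 regions genome-wide. None was lost in KO2 and 1 in KO1, beside 0.503% and 0.821%. Gained regions in KO2 numbered 13 at Smad7, 7 at Smad3, 6 at Acvr1b, 5 at Tdgf1, 4 at Foxh1, 3 at Nodal, 1 at Lefty2, 1 at Skil and 0 at Lefty1. Of 139 H3K4me3 regions, 15 were lost in KO2 and 10 in KO1, beside 8.4% and 7.05% of 105246 regions, and 3 and 2 were gained, beside 4.15% and 2.21%. The losses in KO2 included 6 at Skil, 3 at Acvr1b, 2 at Lefty2 and 2 at Smad7. These counts depend on how peaks are joined. With peaks within 1 kb joined, 16 H3K27ac regions were gained in KO2 and no H3K4me3 region was lost there.

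Outside the 9, 34 further genes of the pathway were examined, of which 19 had enough H3K27ac over the locus to be tested. In KO2 all 19 were called higher (limma), beside 94.4% of all genes, and in KO1 4 of 19 were, beside 24.0%. Of the 19, 7 were under the filter of 1000 bp in Control alone, and 4 of these, Inhbb, Smad4, Smurf1 and Smurf2, passed only through KO2 and so had to be higher there. Among the ligands 3 of 3 tested rose in KO2, Inhbb (1.75, adjusted p = 0.000283), Tgfb1 (1.41, adjusted p = 2.73e-05) and Gdf3 (1.36, adjusted p = 1.79e-06), the last of them a ligand that also uses Tdgf1. Both receptors tested rose, Acvr2b (1.05, adjusted p = 0.000204) and Acvr2a (0.52, adjusted p = 0.0285), which bind activin and Nodal. Of the secreted inhibitors and processing enzymes, Dand5, a Nodal antagonist, rose by 1.00 (adjusted p = 3.31e-05) and the proprotein convertase Pcsk6 by 0.97 (adjusted p = 2.08e-05). The Dand5 promoter window had no peak of either mark in any library, and the Tgfb1 window had no H3K27ac peak. Their H3K27ac lay elsewhere in the extended locus and cannot be assigned to these genes. Peaks at neighbouring genes were not set apart for the 34 genes. All 11 intracellular effectors and inhibitors rose, led by the ubiquitin ligase Smurf1 (2.93, adjusted p = 2.62e-06), the corepressor Tgif2 (1.36, adjusted p = 3.81e-06) and Drap1 (1.26, adjusted p = 0.000303). The only target tested, Pmepa1, rose by 1.95 (adjusted p = 1.72e-06).

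Over the locus, H3K4me3 of these genes fell at 13 of 27 tested in KO2, beside 31.8% of all genes, and rose at 2, beside 5.83%. Of these 2, Gsc passed the filter of 1000 bp only through KO2 and so had to be higher there. In KO1 H3K4me3 over the locus fell at 11, beside 23.0%, and rose at none, beside 2.12%. H3K27ac in the promoter window rose at 18 of the 20 tested in KO2, beside 88.4%, of which 4 (Tgfbr1, Fst, Eomes and Pmepa1) passed the filter only through KO2. H3K4me3 in the window fell at 3 of 30 in KO2, beside 5.67%, among them Fst, a secreted antagonist of activin, and Smad4, and at Pmepa1 alone in KO1, beside 1.56%.

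The genes whose 12 window values were most like those of Nodal, by Euclidean distance in percentage points over 9256 genes, were Etnk1 (18.3), Traf4 (18.5) and Klf3 (19.6). Etnk1 had H3K27ac coverage of 58.0% and 58.8% in Control, with 63.9% and 66.7% in KO1 and 89.0% and 91.9% in KO2, also higher in KO2 than in the other 4 libraries.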

How the data were processed

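Each of the 12 immunoprecipitated libraries had 1 peak list. The submitters' processing notes name mm10, CASAVA, Trimmomatic 0.38, Bowtie 1.2.2 and, with no version, MACS2. The sources used here do not say what part inputs or spike-in reads had in peak calling. In the deposited lists the authors give each peak a score, a fold enrichment (ratio) and −log10 p and q values. These belong to their own list and were used only within it.

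The following measures were computed from the peaks on chromosomes 1 to 19, X and Y. The locus measure is the bp covered in the gene body extended by 20 kb, as log2(bp + 500), where the mean over libraries was 1000 bp or more. The promoter measure is the percent covered of a window of 2 kb on each side of a centre, where the mean was 5% or more. Differences of low values are understated by the added 500 bp. The centre is the start in the RefSeq promoter table (17492 of 21887 protein-coding genes, among them Nodal, Tdgf1, Acvr1b and Smad3) or, where that gives none, the place in the gene with the most H3K4me3 (3151 genes, among them Lefty1, Lefty2, Foxh1, Smad7 and Skil). For 23 genes H3K27ac placed it, and 1221 had none.

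Each measure and mark was fitted over 6 libraries with limma 3.58.1 in R 4.3.3 (lmFit, contrasts.fit, eBayes with a trend) for KO1 minus Control, KO2 minus Control and KO2 minus KO1. Benjamini-Hochberg adjustment was over all genes tested, and a change was called at an adjusted p under 0.05. No scaling between libraries was applied. The fit was tested on simulated data in which most genes did not change. That test therefore does not cover the general rise of H3K27ac in KO2. Peaks of a mark that overlap by at least 1 bp were merged into regions for counting. Region lengths are the bases covered by each library's peaks in the whole region. Python 3.11.15 with pandas 2.3.3, numpy 2.4.6 and matplotlib 3.10.9 did the rest.

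All 9 genes are named. Of the other 34, up to 3 per role were named by the largest change in H3K27ac locus coverage in KO2, and regions by being gained or lost with the greatest mean width. The genes, lists and rules were chosen with earlier results of these data known. The planned promoter window needed strand, which 5 of the 9 genes lacked. The values of 1 of the other 34 genes are not reported here.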

Additional observations from a re-analysis of the deposited data

Results flagged for a closer look

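The change from Control differed between the 2 knockout lines at 19 of the fitted values, by a limma test of KO2 minus KO1 over all genes (adjusted p under 0.05).

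Over the locus, H3K27ac was higher in KO2 than in KO1 at Acvr1b by 1.78 (log2, adjusted p = 2.77e-05), Smad7 by 1.62 (8.97e-06), Smad3 by 1.46 (0.000127), Foxh1 by 1.27 (9.63e-05), Nodal by 0.96 (3.54e-05), Tdgf1 by 0.88 (2.96e-05) and Skil by 0.48 (0.0339). The median of all genes was 0.85, so Skil lay below it. The Smad3 locus passed the filter only through KO2. Lefty1 was the only member lower there, by -0.53 (0.0102), and 20 of 8909 genes had a more negative value. That call was lost without KO1 replicate 1 (-0.42, adjusted p = 0.076) and without KO2 replicate 1 (-0.32, adjusted p = 0.134), and with an extension of 5 kb (-0.06, adjusted p = 0.755), and that of Skil without KO1 replicate 2 (0.24, adjusted p = 0.278) and KO2 replicate 2 (0.35, adjusted p = 0.206). After quantile normalization Lefty1 (-1.41), Acvr1b (0.88) and Smad7 (0.76) kept a call, and the calls of all genes were 1347 higher and 1420 lower in place of 7762 and 30.

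In the promoter window, H3K27ac was higher in KO2 than in KO1 at Tdgf1 by 48.2 points (adjusted p = 0.000252), Nodal by 37.9 (0.00107), Smad7 by 36.6 (0.000672), Smad3 by 32.2 (0.000295), Skil by 17 (0.0324), Acvr1b by 15.7 (0.00257) and Foxh1 by 14.0 points (0.0319), against a median of 14.6. At Tdgf1, 99.1% of genes had a smaller difference, and it stayed called after quantile normalization (30.6 points, adjusted p = 0.00422), as did Smad3 (15.6 points, adjusted p = 0.0285), with 365 genes higher and 112 lower in place of 7109 and 7. The Smad3 and Acvr1b windows passed the filter only through KO2, in both of these fits. The Foxh1 and Skil calls were each lost in 5 of the 6 fits with a library left out (6.96 to 21.0 and 8.57 to 25.4 points over the 6), and stayed called without KO2 replicate 2 for Foxh1 and without KO1 replicate 1 for Skil.

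H3K4me3 over the locus was lower in KO2 than in KO1 at Lefty1, by -1.04 (adjusted p = 0.00139), and at Skil, by -0.73 (0.00583), the latter not called without KO1 replicate 1 (-0.61, adjusted p = 0.0562). In the window it was lower at Lefty1 by -44.1 points and at Lefty2 by -24.0 points (both adjusted p = 0.0444). At Lefty1, 2 of 13344 genes had a more negative difference. Both calls were lost with any library but KO2 replicate 1 left out, at -54.8 to -33.5 points and -29.2 to -18.8 points over the 6 fits, and stayed called after quantile normalization (-42.5 and -20.6 points, both adjusted p = 0.014).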

How the results depend on the processing

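Reads per library are not given, so the depth behind a peak is unknown and a region without a peak may hold signal under the authors' threshold. With 2 libraries a genotype, leaving 1 out puts a lone library in its group, which is then assumed to vary like the others. Counts below are of the 9 genes, with the value of the reported fit in brackets, and where a value differed the cause was not tested. Of the counts, 249 under other settings and 119 with a library left out stayed within 1.5 times the reported one, and 43 and 25 did not. Of the values of single genes, 509 and 247 kept their direction and side of the threshold, 63 and 56 lost a call, 3 and 1 gained one, and 16 and 2 reversed. 

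After quantile normalization, H3K27ac over the locus was higher in KO2 than in Control at 3 genes (7) and lower at 2 (0), and higher in KO2 than in KO1 at 2 (7) and lower at 2 (1). Over the window it was higher in KO2 than in Control at 1 (7) and than in KO1 at 2 (7). H3K4me3 over the locus was higher at 2 (0) and lower at 1 (3) in KO1, higher at 2 (0) and lower at 3 (5) in KO2, and higher in KO2 than in KO1 at 1 (0), and in the promoter window it was higher in KO2 at 2 (0). With an equal number of peaks taken from each list, H3K27ac over the locus was lower in KO2 at 1 (0), H3K4me3 over the locus was higher in KO2 than in KO1 at 1 (0), and H3K4me3 in the window was lower at 0 in KO1 (1) and lower in KO2 than in KO1 at 1 (2).

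With the gene body extended by 5 kb or 50 kb, H3K27ac was lower in KO2 than in KO1 at 0 genes (1), and with 50 kb it was higher in KO1 at 2 (1). With only the 2 genotypes compared in the fit, H3K27ac over the locus was higher in KO1 at 0 (1), Smad3, the gene called, being under the filter there and not tested, H3K4me3 over the locus was lower there at 6 (3), and H3K4me3 in the window was lower in KO2 than in KO1 at 0 (2). That last count was also 0 with no filter on low coverage, with no trend and with a window of 1 kb on each side, and it was 1 with stricter peaks, with the window at the most H3K4me3 and with the replicate block. The count of windows lower in H3K4me3 in KO1 was 0 (1) with no filter, stricter peaks, the window of 1 kb and the window at the most H3K4me3, and in KO2 it was 0 (3) with the window of 1 kb. With stricter peaks (−log10 q of at least 5), H3K4me3 over the locus was lower in KO2 than in KO1 at 1 (2), and 22 H3K27ac regions (40) and 5 H3K4me3 regions (3) were gained in KO2. With peaks within 1 kb joined, 4 H3K27ac regions were gained (8) and 0 lost (1) in KO1 and 16 gained in KO2 (40), and 1 H3K4me3 region was gained (2) and 1 lost (10) in KO1 and 1 gained (3) and 0 lost (15) in KO2.

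With each library left out in turn, H3K27ac over the locus was lower in KO2 than in KO1 at 0 to 1 genes. H3K4me3 over the locus was higher in KO2 at 0 to 1 and higher in KO2 than in KO1 at 0 to 2, lower in KO1 at 1 to 6, lower in KO2 at 3 to 7 and lower in KO2 than in KO1 at 1 to 3. In the window it was lower in KO1 at 0 to 1, in KO2 at 0 to 3 and in KO2 than in KO1 at 0 to 2.

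Directions reversed as follows. The H3K27ac locus difference of Lefty1 in KO2 ran from -0.32 to 0.10 with a library left out (0.10 without KO2 replicate 1) and was 0.30 with 5 kb and 0.16 with 50 kb, and against KO1 it was 0.053 with 50 kb. That of Lefty2 was -0.87 after quantile normalization and -0.12 with an equal number of peaks. After quantile normalization Tdgf1 was at -0.16 and Skil at -0.41 in KO2, and Skil at -0.40 against KO1. For promoter coverage, the KO2 difference after quantile normalization was -13.4 points at Lefty1, -19.3 at Lefty2, -11.6 at Foxh1 and -3.50 at Skil, and against KO1 it was -5.05 at Foxh1 and -5.06 at Skil. With an equal number of peaks it was -2.36 points at Lefty1 and -11.5 at Lefty2, and at Lefty2 it ran from -0.26 without Control replicate 1 to 11.6 without Control replicate 2.

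The labels give the genotypes the same replicate numbers, but libraries of 1 number did not deviate together (correlations of -0.00368 to 0.0303), so the numbers were not taken to pair them. The replicate block moved the Lefty2 window difference in H3K4me3 between KO2 and KO1 to -24 points with an adjusted p of 0.0575 (limma) and changed no other count by more than 1.5 times.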

Other observations

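Pmepa1, a target of TGF-beta signalling that encodes a membrane protein binding Smad proteins, had its least H3K4me3 in KO1 and its most H3K27ac in KO2. It was chosen after its values were seen. Its H3K4me3 over the locus was 27314 and 27073 bp in Control, against 6535 and 6425 bp in KO1 and 13739 and 11910 bp in KO2, a change of -1.99 in KO1 and -1.06 in KO2 (log2, limma adjusted p = 5.81e-06 and 7.57e-05). Its H3K27ac was 1809 and 2604 bp in Control, with 1843 and 1471 bp in KO1 and 9825 and 9852 bp in KO2.

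Smad4, the common partner of the activated Smad proteins, and Ski, a corepressor related to Skil, had lower H3K4me3 over the locus in both lines. Smad4 changed by -0.67 in KO1 and -1.25 in KO2, and Ski by -1.18 and -1.55 (limma adjusted p between 3.75e-05 and 0.00253). Both were chosen after their values were seen.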
